A study of Mus musculus with 8 samples.

Results

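The enzymes that make serine and pass its carbon to folate were followed in cultured mouse embryonic fibroblasts (MEFs), the connective tissue cells that grow from a dissociated embryo, with and without Cebpg. The set holds 10 genes chosen by name, 3 of serine synthesis (Phgdh, Psat1 and Psph), 3 of the cytosolic folate cycle (Shmt1, Mthfd1 and Aldh1l1) and 4 of the mitochondrial one (Shmt2, Mthfd2, Mthfd1l and Aldh1l2). They are read by 24 probe sets that name one of them alone, out of 45037 probe sets and 18193 genes measured. All 10 genes had at least 1 such probe set, and no filter on low values was applied. The 4 WT samples carried both copies of Cebpg, and the 4 Cebpg-/- samples lacked a working copy. Cebpg encodes C/EBPγ, a leucine zipper transcription factor that pairs with other factors of its class. All samples were labelled C57BL/6, were taken from embryos at E13.5, were kept in medium with 10% fetal bovine serum and received no further agent. They were plated at passage 3 at equal density and collected 48 hours later. Each sample gave total RNA for 1 Affymetrix array, and values are expression values on the log2 scale. The labels call the samples biological replicates and do not say if each came from its own embryo, so the tests here rest on the spread among 8 samples of unknown relation.

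Serine is built from the glycolytic intermediate 3-phosphoglycerate in a short chain: PHGDH oxidises it, PSAT1 adds the amino group and PSPH removes the phosphate. Serine hydroxymethyltransferases then split serine into glycine and a carbon unit that is carried on tetrahydrofolate. The cell runs this folate cycle in parallel in the cytosol and in the mitochondrion with separate enzymes. The mitochondrial arm mostly breaks serine down and releases formate, and the cytosolic arm uses that formate for purines, thymidylate and methyl groups.

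Sequence upstream of the start site is shown for Phgdh and Psat1 of serine synthesis and for Shmt2 and Mthfd2 of the mitochondrial arm. Of these Phgdh did not pass and the others fell. Mthfd1l, the mitochondrial member that did not pass, is not shown. The sequences are RefSeq's for GRCm38.p6, each the 250 bases before an annotated start, 5′ to 3′ on the gene's strand. Capitals mark CCAAT on either strand (CCAAT or ATTGG), the core of a common promoter element.
Phgdh (chr3:98339970-98340219, minus strand): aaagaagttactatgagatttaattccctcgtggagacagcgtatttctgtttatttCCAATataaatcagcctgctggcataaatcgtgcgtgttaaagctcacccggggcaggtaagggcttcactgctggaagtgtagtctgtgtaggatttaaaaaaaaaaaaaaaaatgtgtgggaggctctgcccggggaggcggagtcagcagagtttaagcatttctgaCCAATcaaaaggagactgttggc
Psat1 (chr19:15925060-15925309, minus strand): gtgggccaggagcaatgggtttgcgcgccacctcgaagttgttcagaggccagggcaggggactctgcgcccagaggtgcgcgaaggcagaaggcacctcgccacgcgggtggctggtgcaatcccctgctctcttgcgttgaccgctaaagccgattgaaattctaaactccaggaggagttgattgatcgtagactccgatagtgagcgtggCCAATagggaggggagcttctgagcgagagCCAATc
Shmt2 (chr10:127522445-127522694, minus strand): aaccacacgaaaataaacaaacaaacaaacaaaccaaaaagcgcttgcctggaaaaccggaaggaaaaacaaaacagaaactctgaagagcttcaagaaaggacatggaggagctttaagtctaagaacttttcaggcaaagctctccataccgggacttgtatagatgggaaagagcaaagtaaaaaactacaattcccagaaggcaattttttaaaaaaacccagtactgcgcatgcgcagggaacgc
Mthfd2 (chr6:83317605-83317854, minus strand): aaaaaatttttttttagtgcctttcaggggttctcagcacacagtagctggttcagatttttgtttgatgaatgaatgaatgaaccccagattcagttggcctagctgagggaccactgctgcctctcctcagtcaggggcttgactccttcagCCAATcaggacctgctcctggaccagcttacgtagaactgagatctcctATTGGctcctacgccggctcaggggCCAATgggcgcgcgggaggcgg

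Windows were at hand for 9 of the 10 members (not Aldh1l2), 10 windows in all since Psat1 has 2. The C/EBP-ATF response element, searched as TGATGNAA on both strands, was in 0 of these 10 windows and in 3.45% of all 32851 windows of this length. The C/EBP palindrome TTGCGCAA was in 0 of 10 and in 0.164% of all windows. CCAAT, which was chosen after those searches gave no match, was in 7 of the 10 windows, against 33.8% of all windows. The other Psat1 window held none. Mthfd2, which fell, had 3 CCAAT matches, and Phgdh, which did not pass, had 2. Shmt2 and Mthfd1l had none in these windows, and of them Shmt2 fell and Mthfd1l did not pass.

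The array medians lay between 2.70 and 2.76, and the number of arrays, not a depth, limits the precision. Of 3 probe sets for the targeted gene Cebpg, 1 fell, to 58.1% of its WT level (limma, adjusted p = 0.000593 over all probe sets), and the sources used here do not say which probe sets the deletion covers. The brightest stood at 88.6% of WT with overlapping groups (limma, adjusted p = 0.232 over genes). The dimmest was higher on all 4 Cebpg-/- arrays, by 0.26, and did not pass (limma, adjusted p = 0.0942 over the whole array). All 11 fibroblast markers lay above the median value of all probe sets, and 5 of them fell in Cebpg-/- (limma; 7 lower and 1 higher at an unadjusted p under 0.05). The 1 higher was Lum, at 1.07 (limma, adjusted p = 0.104). Leukocyte markers were also present. The mean of 20 of them ran from 3.61 to 5.54 on the WT arrays and from 4.89 to 7.58 on the Cebpg-/- arrays, with 1 of the 20 below the median of all values. None of the 20 passed singly (limma with Benjamini-Hochberg adjustment), with 15 higher at an unadjusted p under 0.05. Of 5 epithelial markers, 1 of them below that median, Epcam fell by 0.34 and Krt19 rose by 0.53 (limma, adjusted p = 0.0200 and 0.0211). Endothelial and erythroid markers were dim, with 4 of 5 and 3 of 3 below the median of all values. In these bulk samples fewer cells of a type and less RNA per cell cannot be told apart.

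In Cebpg-/- fibroblasts 5 of the 10 enzymes fell, 2 of the 3 of serine synthesis (Psat1 and Psph) and 3 of the 4 of the mitochondrial folate arm (Shmt2, Mthfd2 and Aldh1l2). In the cytosolic arm 1 of 3 rose (Shmt1) and none fell. The other 4 did not pass (Phgdh, Mthfd1, Aldh1l1 and Mthfd1l). A gene is represented by its brightest probe set, the change is Cebpg-/- minus WT, and a gene passed at a limma adjusted p under 0.05 over all genes. By this rule 3.99% of all genes were called lower and 8.62% higher. The members were chosen with earlier results of these data known, so shares over all genes describe the set and do not test it. In the 5 members that fell, all 4 Cebpg-/- values lay below all 4 WT values, an order that 6.74% of all genes showed. In Shmt1 they lay above all WT values, as in 12.8% of all genes. The median change of the 10 members was -0.45, beside -0.00092 over all genes. Among all genes ordered by their fall, Aldh1l2 was number 6, Mthfd2 33, Psat1 85, Psph 97 and Shmt2 117.

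**Figure D1:**
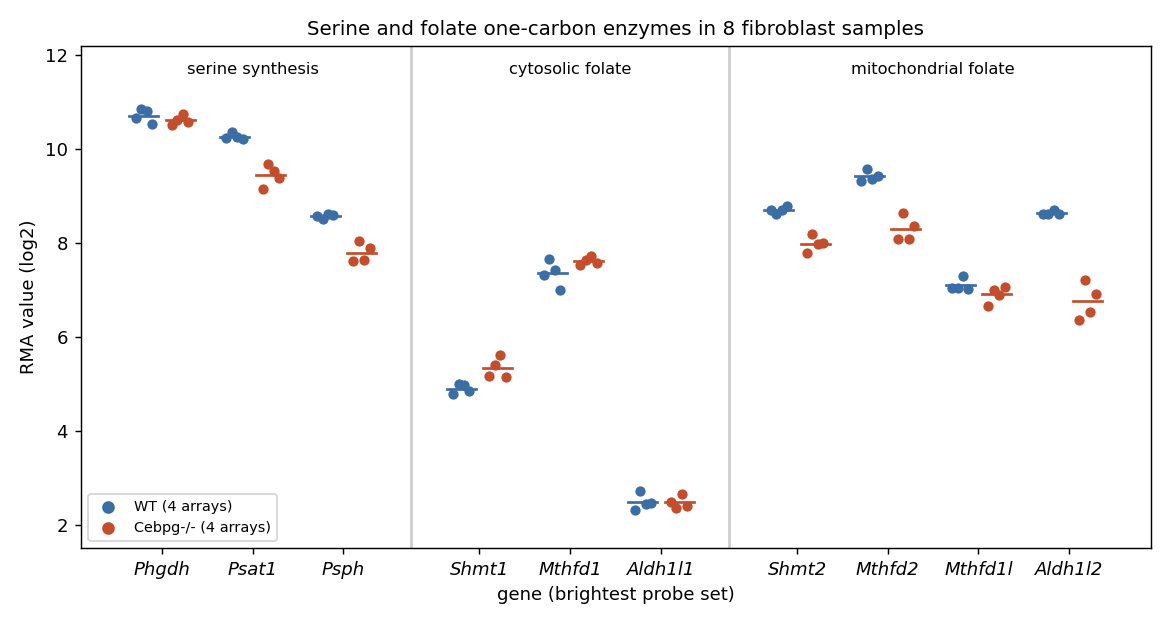
Log2 expression value (vertical axis) of the brightest probe set of each member on the 4 WT (blue) and 4 Cebpg-/- (orange) arrays, with a line at each group mean. The groups are apart for Psat1, Psph, Shmt1, Shmt2, Mthfd2 and Aldh1l2 and overlap for Phgdh, Mthfd1, Aldh1l1 and Mthfd1l.

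Serine synthesis is taken first. Phgdh, the dehydrogenase that commits 3-phosphoglycerate to serine, read 10.67, 10.85, 10.81 and 10.53 on WT replicates 1 to 4 and 10.52, 10.62, 10.76 and 10.58 on Cebpg-/- replicates 1 to 4. The groups overlapped. Its change was -0.10 with a 95% interval from -0.28 to 0.09 (limma, adjusted p = 0.489), so a fall beyond 0.28 lies outside the interval. Leaving out 1 array gave -0.16 (without WT replicate 4) to -0.05 (without WT replicate 2), and none passed. The other 3 Phgdh probe sets changed by -0.17 to -0.07 and did not pass either. All 4 carry the suffix that Affymetrix gives to probe sets whose probes may bind similar transcripts, and a further 2 that name Phgdh together with a predicted gene (Gm8096 or Gm6756) were left out by the rule. Those 2 changed by -0.05 and -0.14 and did not pass.

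Psat1, the aminotransferase of the pathway, read 10.24, 10.36, 10.26 and 10.21 in WT and 9.15, 9.69, 9.54 and 9.39 in Cebpg-/-. Every Cebpg-/- array lay below every WT array, and replicate 1 was the lowest and replicate 2 the highest of the 4. The mean fell from 10.27 ± 0.07 to 9.44 ± 0.23 (SD, n = 4), to 56.5% of WT (limma, change -0.82, SE 0.10, adjusted p = 0.00150). Its other probe set changed by -0.75 and also passed (limma, adjusted p = 0.00160 over all probe sets).

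Psph, the phosphatase that releases serine, read 8.59, 8.51, 8.61 and 8.60 in WT and 7.62, 8.04, 7.64 and 7.89 in Cebpg-/-. Here too the groups were apart, and the 4 WT values lay within a narrower band than the 4 Cebpg-/- values. The mean fell from 8.58 ± 0.04 to 7.80 ± 0.20 (SD, n = 4), to 58.2% of WT (limma, adjusted p = 0.00107). Psph has 1 probe set, so no other probe set bears on it.

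The pathway thus held a member that did not pass beside its other members, which fell. The difference Psat1 minus Phgdh on the same array, set to a WT mean of 0, ran from -0.10 to 0.13 on WT arrays and from -0.92 to -0.48 on Cebpg-/- arrays. For Psph minus Phgdh the ranges were -0.20 to 0.20 and -0.98 to -0.44. These pairs were chosen after the values were seen and are given without a test.

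In the cytosolic folate arm no probe set passed as lower. SHMT1 splits serine into glycine and a folate-bound carbon in the cytosol. Shmt1 read 4.78, 5.002, 4.97 and 4.84 in WT and 5.17, 5.41, 5.62 and 5.15 in Cebpg-/-. The lowest Cebpg-/- value lay at 5.15 and the highest WT value at 5.002, so the groups were apart by little. The mean rose from 4.90 ± 0.10 to 5.34 ± 0.22 (SD, n = 4), a change of 0.44 (limma, adjusted p = 0.0248). It no longer passed when WT replicate 1 was left out (0.40, limma adjusted p = 0.0781), after quantile normalization (0.36, 0.0603), with the mean of the gene's 4 probe sets (0.26, 0.159) and with the leukocyte marker mean as a covariate (0.43, 0.169), a fit that called 1.42% of all genes higher. The other 3 Shmt1 probe sets changed by 0.16 to 0.22, with overlapping groups, and did not pass.

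Mthfd1, the cytosolic enzyme that joins formate to folate and interconverts the carbon's oxidation states, gave probe sets that differed from each other. The brightest read 7.32, 7.66, 7.43 and 7.01 in WT and 7.53, 7.64, 7.73 and 7.58 in Cebpg-/-. These groups overlapped, with the WT values spread wider than the Cebpg-/- values, and the change of 0.27 did not pass (limma, adjusted p = 0.181, 95% interval from -0.0031 to 0.53). Leaving out 1 array gave 0.15 (without WT replicate 4) to 0.37 (without WT replicate 2; limma, adjusted p = 0.0522), and none passed. Another probe set read 7.13, 7.27, 7.04 and 6.99 in WT and 7.42, 7.47, 7.58 and 7.43 in Cebpg-/-, with no overlap, and passed as higher (0.37, limma adjusted p = 0.0168 over all probe sets). The dimmest of the 3 changed by 0.00048, and it carries the same suffix as the Phgdh probe sets.

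Aldh1l1, which oxidises the folate-bound carbon to carbon dioxide in the cytosol, lay near the bottom of the scale. Its brighter probe set read 2.31 to 2.72 in WT and 2.37 to 2.65 in Cebpg-/-, and both of its probe sets were under the median value of all probe sets, 2.73. The change of -0.01 (limma, adjusted p = 0.962) is therefore of a gene with little signal in these cells, where expression values of this kind compress any change.

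In the mitochondrial folate arm 7 of 8 probe sets fell and none rose (limma, adjusted over all probe sets; 7 lower and 0 higher at an unadjusted p under 0.05). Over all probe sets 2.78% were called lower and 4.82% higher. The 7 read only Shmt2, Mthfd2 and Aldh1l2, and probe sets of the same gene are repeat readings, not separate cases. Of the 9 cytosolic probe sets 2 rose and 0 fell (2 and 0 at an unadjusted p under 0.05), and of the 7 for serine synthesis 3 fell and 0 rose (3 and 0 likewise).

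**Figure D2:**
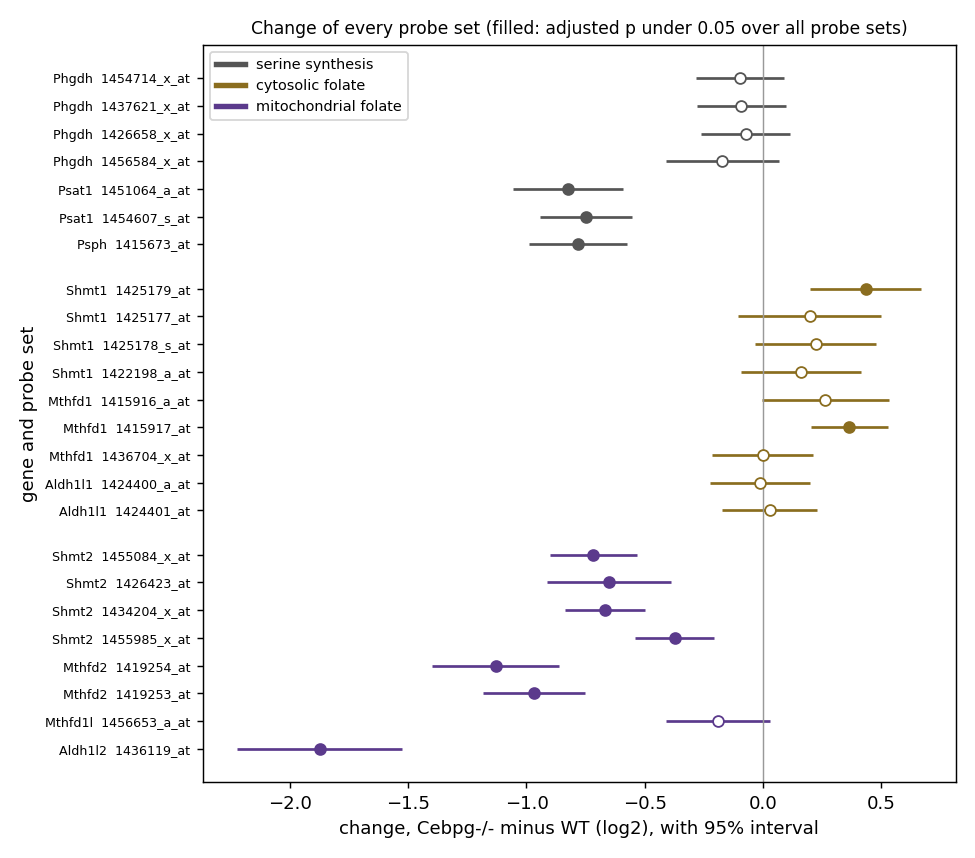
Change of each of the 24 probe sets in Cebpg-/- relative to WT on the log2 scale (horizontal axis), with the 95% interval from limma. Filled points passed over all probe sets. The mitochondrial probe sets (purple) run from -1.88 to -0.19, the cytosolic ones (ochre) from -0.01 to 0.44.

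Shmt2, the mitochondrial counterpart of Shmt1, read 8.71, 8.61, 8.71 and 8.79 in WT and 7.79, 8.19, 7.98 and 7.998 in Cebpg-/-. All Cebpg-/- arrays were lower than all WT arrays. The mean fell from 8.71 ± 0.07 to 7.99 ± 0.16 (SD, n = 4), to 60.8% of WT (limma, adjusted p = 0.000913). Its other 3 probe sets changed by -0.67, -0.65 and -0.37, each with separate groups, and each passed (limma, adjusted p from 0.00141 to 0.0171 over all probe sets). The smallest of these changes was that of the dimmest probe set, at 5.02 in WT. The brightest probe set and those that changed by -0.67 and -0.37 carry the same suffix as the Phgdh probe sets. The probe set that changed by -0.65 does not.

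Mthfd2, the mitochondrial dehydrogenase and cyclohydrolase of growing and embryonic cells, read 9.32, 9.57, 9.37 and 9.44 in WT. On the Cebpg-/- arrays it read 8.08, 8.63, 8.09 and 8.37. Replicate 2 was again the highest of the Cebpg-/- arrays, and still well under the lowest WT value. The mean fell from 9.42 ± 0.11 to 8.29 ± 0.26 (SD, n = 4), to 45.7% of WT (limma, change -1.13, adjusted p = 0.000639). The other probe set changed by -0.97 (limma, adjusted p = 0.000790 over all probe sets).

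Mthfd1l, which releases formate in the last step before it leaves the mitochondrion, read 7.03, 7.05, 7.30 and 7.01 in WT. On the Cebpg-/- arrays it read 6.67, 6.99, 6.90 and 7.08. Cebpg-/- replicate 4 lay above 3 of the WT arrays, so the groups overlapped. The change of -0.19 did not pass (limma, adjusted p = 0.237, 95% interval from -0.41 to 0.03). Leaving out 1 array gave -0.24 (without Cebpg-/- replicate 4) to -0.11 (without Cebpg-/- replicate 1; limma, adjusted p = 0.494). It was read by 1 probe set.

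Aldh1l2, the mitochondrial counterpart of Aldh1l1, which makes carbon dioxide and NADPH from the folate-bound carbon, fell the most of the 10 members. It read 8.61, 8.61, 8.70 and 8.61 on the WT arrays and 6.36, 7.21, 6.54 and 6.93 on the Cebpg-/- arrays. The WT arrays were nearly equal and the Cebpg-/- arrays spread over a wide range, all of it below WT. The mean fell 3.67-fold, from 8.64 ± 0.05 to 6.76 ± 0.38 (SD, n = 4; limma, change -1.88, SE 0.16, adjusted p = 0.000213). It too was read by 1 probe set.

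Within the mitochondrial arm the members that fell also differed from Mthfd1l on the same array, in pairs chosen after the values were seen and given without a test. With the WT mean set to 0, Shmt2 minus Mthfd1l ran from -0.69 to -0.41 on the Cebpg-/- arrays and from -0.19 to 0.16 on the WT arrays. Mthfd2 minus Mthfd1l ran from -1.14 to -0.68 and from -0.26 to 0.20. Aldh1l2 minus Mthfd1l ran from -1.90 to -1.32 and from -0.13 to 0.06. In none of these 3 pairs did the groups overlap.

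The comparison of the arms asks whether a mitochondrial enzyme changed more than its cytosolic counterpart. It was made as the difference between both genes on the same array, each read by its brightest probe set, over 4 pairs, with an exact permutation test of Cebpg-/- against WT. Only changes are compared, since levels of different probe sets share no scale. With 4 arrays against 4 the smallest two-sided p the test can give is 0.0286.

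Shmt2 minus Shmt1 lay at 0.12, -0.20, -0.06 and 0.13 around the WT mean on WT replicates 1 to 4. On Cebpg-/- replicates 1 to 4 it lay at -1.19, -1.03, -1.44 and -0.96. The groups were far apart. The change of Shmt2 was lower than that of Shmt1 by 1.15, a difference of changes of -1.15 ± 0.13 (SE, n = 4 per group; exact permutation p = 0.0286, 0.0381 adjusted over the 4 pairs, and lower in 4 of 4 Cebpg-/- arrays than in any WT array). All 16 combinations of their probe sets gave a negative difference with separate groups, from -1.15 to -0.54.

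Mthfd2 minus Mthfd1 lay at -1.52, -1.08, -1.71 and -1.28 on the Cebpg-/- arrays, and between -0.16 and 0.36 on the WT arrays. The difference of changes was -1.40 ± 0.18 (SE, n = 4 per group; exact permutation p = 0.0286, adjusted 0.0381). All 6 combinations of probe sets had separate groups, from -1.50 to -0.97, so the disagreement between the Mthfd1 probe sets did not alter the direction.

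Aldh1l2 minus Aldh1l1 lay at -2.28, -1.30, -2.26 and -1.63 on the Cebpg-/- arrays and between -0.26 and 0.16 on the WT arrays. The difference of changes was -1.87 ± 0.26 (SE, n = 4 per group). Both Aldh1l1 probe sets lay under the median of all values, where a change would show little, so this value restates the fall of Aldh1l2 and is given as a description, not as a test of one arm against the other. Its p was still among those adjusted together over the 4 pairs, which bears on the adjusted p of the other pairs. For this pair, the covariate fit is also given as a value. With the leukocyte marker mean as a covariate it was -1.45.

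Mthfd1l minus Mthfd1, which share the formate-folate ligase step in their own compartments, lay at -0.61, -0.40, -0.57 and -0.25 on the Cebpg-/- arrays and between -0.36 and 0.26 on the WT arrays. These groups overlapped. The difference of changes, -0.45 ± 0.16 (SE, n = 4 per group), did not pass (exact permutation p = 0.0571, adjusted 0.0571), and 1 of 3 probe set combinations had separate groups.

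**Figure D3:**
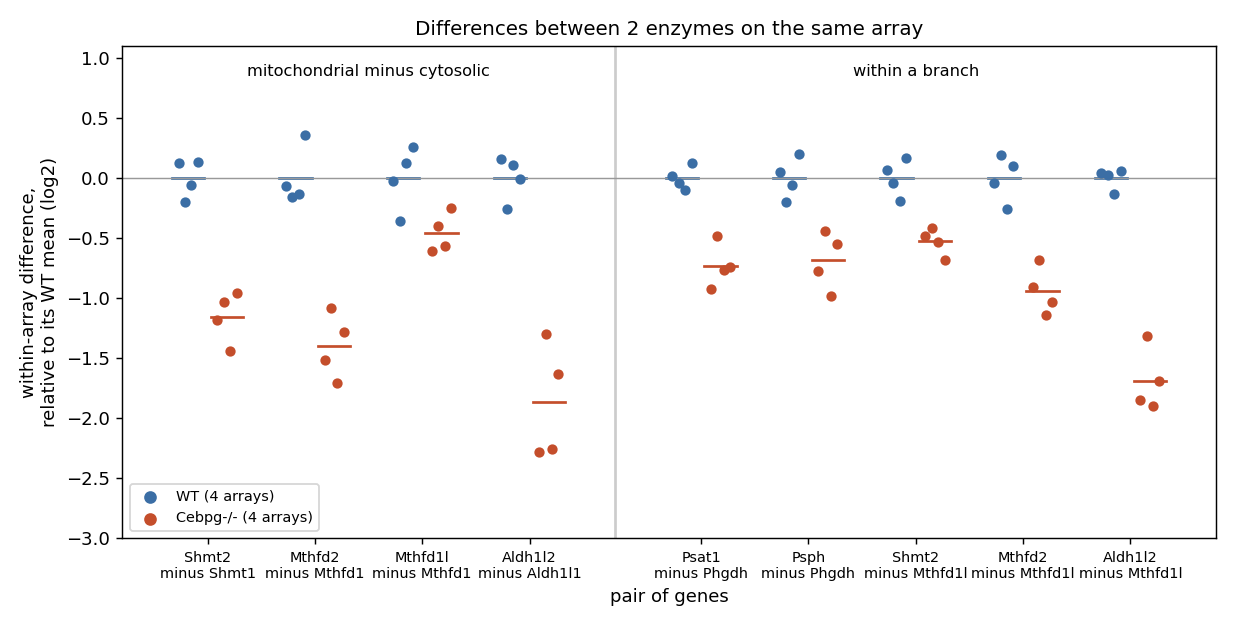
Within-array differences between both genes of a pair, in log2 units relative to the mean of the 4 WT arrays (vertical axis), for the 4 pairs of a mitochondrial and a cytosolic enzyme (left) and 5 pairs within a branch (right). Blue points are WT arrays, orange points Cebpg-/- arrays and lines group means. The groups overlap for Mthfd1l minus Mthfd1 alone.

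The 5 members that fell varied together among the Cebpg-/- arrays. In all 5, replicate 1 was the lowest and replicate 2 the highest. Replicate 1 was also the lowest in 3 of the 4 members that did not pass (Phgdh, Mthfd1 and Mthfd1l), and replicate 2 the highest in 0 of them. The leukocyte marker mean ran the other way on these arrays, at 7.58, 4.89, 6.86 and 6.45 on replicates 1 to 4. In 4 of the 5 genes the order of the 4 arrays was exactly opposite to that of the marker mean, the exception being Psat1. How many of all genes share these orders was not counted, so they are not shown to be particular to the members. On WT replicates 1 to 4 the marker mean was 3.61, 5.39, 5.35 and 5.54. On these arrays Aldh1l2 read between 8.61 and 8.70 and Psph between 8.51 and 8.61. Shmt2 read between 8.61 and 8.79, Mthfd2 between 9.32 and 9.57 and Psat1 between 10.21 and 10.36. The marker mean averaged 4.97 in WT and 6.45 in Cebpg-/-, so these 8 arrays cannot fully separate genotype from leukocyte content. Cebpg-/- replicate 2, whose marker mean lay within the WT range, read 7.21 for Aldh1l2, 8.63 for Mthfd2, 8.19 for Shmt2, 8.04 for Psph and 9.69 for Psat1, each below all 4 WT arrays. With the marker mean as a covariate all 5 still passed, with changes of -0.68 for Psat1, -0.63 for Psph, -0.59 for Shmt2, -0.98 for Mthfd2 and -1.60 for Aldh1l2 (limma, adjusted p from 0.00181 to 0.0244). That fit called 0.70% of all genes lower. All 5 also passed when both replicate 1 arrays, with the lowest and the highest marker mean, were left out (limma, adjusted p from 0.00396 to 0.0176). Without those arrays 1.00% of all genes were called lower. Whether the leukocyte content of the samples bears on the falls was not tested.

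**Figure D4:**
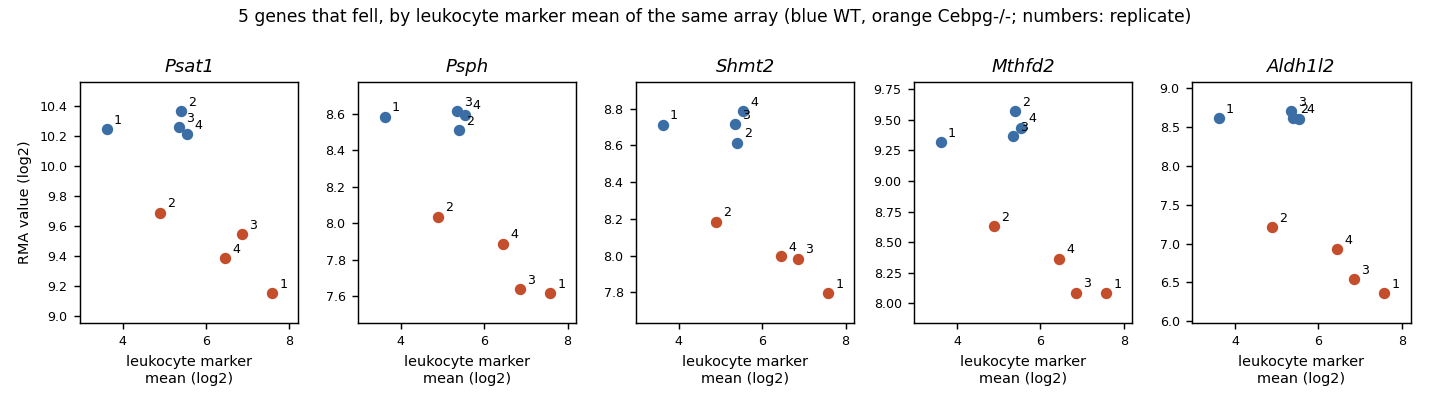
Log2 value of the 5 members that fell (vertical axes, 1 panel each) against the mean of 20 leukocyte markers on the same array (horizontal axes), with WT arrays in blue, Cebpg-/- arrays in orange and replicate numbers beside the points. Cebpg-/- replicate 2 lies at 4.89, within the WT range of marker means, and below the WT arrays in each panel.

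Few other genes of serine, folate and methyl-group metabolism passed, and several of them were dim. Of 41 listed 35 had a probe set of their own, of which 0 fell, 3 rose and 32 did not pass (limma; 4 lower and 4 higher at an unadjusted p under 0.05), with a median change of 0.04. Beside the background of 3.99% lower and 8.62% higher over all genes, the 3 rises of 35 are near the usual share. Among 7 genes of folate uptake and storage, such as Slc19a1 (the reduced folate carrier; 0.20) and Slc25a32 (the mitochondrial folate carrier; -0.06), none passed, with 1 lower at an unadjusted p under 0.05. Nor did any of 7 enzymes that use folate, with 1 higher unadjusted, which include Atic (the last steps of purine synthesis; 0.05) and Mthfd2l (the paralogue of Mthfd2; 0.01). None of 3 measured glycine cleavage genes or 4 of choline breakdown passed, adjusted or not. Several listed genes lay under the median of all values, 2.73, in both groups, where a change would show little. These were Gldc of glycine cleavage and Chdh, Dmgdh and Pipox of choline breakdown. Tyms, Mthfs and Ftcd of the folate users and Bhmt and Bhmt2 of the methyl cycle were as dim. For all of these the lack of a call says little.

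The 3 that rose were Mtrr (which reactivates methionine synthase; 0.34, limma adjusted p = 0.00952) and both measured subunits of serine palmitoyltransferase, which uses serine for sphingolipids, Sptlc1 (0.33, 0.0200) and Sptlc2 (0.19, 0.0465). Sptlc2 also has a dim probe set that passed as lower (-0.27, limma adjusted p = 0.0422 over all probe sets). The Sptlc2 call was lost in each of the 8 fits that leave out 1 array, and that of Sptlc1 in 3 of them, which leave out replicate 1 of either genotype or Cebpg-/- replicate 3. With the leukocyte marker covariate, where 1.42% of all genes were called higher, Mtrr was at 0.24, Sptlc1 at 0.24 and Sptlc2 at 0.16, and none passed (limma, adjusted p from 0.137 to 0.315). Of the rest the lowest p belonged to Sfxn3, a mitochondrial carrier related to the serine carrier (-0.23, limma adjusted p = 0.0546), and Gart, a purine synthesis enzyme that takes carbon from folate (0.19, 0.0789). Sfxn1, the mitochondrial serine carrier, changed by -0.05.

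**Figure D5:**
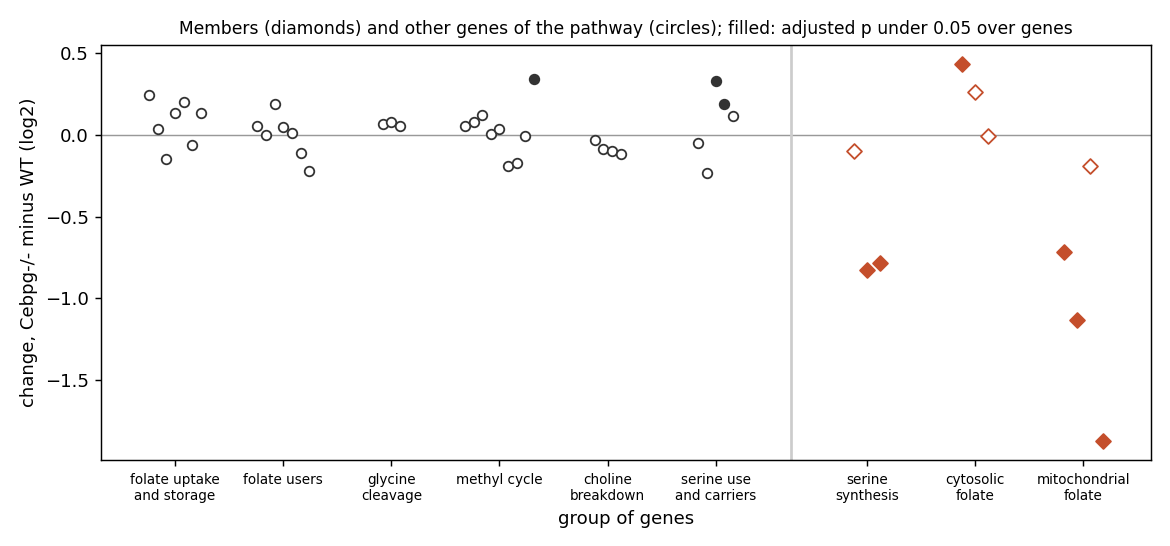
Change in Cebpg-/- relative to WT on the log2 scale (vertical axis) of the 10 members (diamonds) and of 35 other genes of the pathway (circles), each by its brightest probe set, with genes that passed filled. The circles lie between -0.23 and 0.34, while 5 diamonds lie at -0.72 or lower. Some circles are genes under the median of all values, where a change would show little.

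The genes whose 8 values ran most like those of Aldh1l2, the member with the largest fall, were Scd2 (Pearson r = 0.998), Pck2 (0.998), Asns (0.996), Psph (0.996) and Atf5 (0.994), by a rule that takes the 5 highest. These r values are a description over 8 arrays that share the genotype split, which alone gives a high r. With each genotype's mean taken out they were 0.978, 0.958, 0.938, 0.973 and 0.914 in the same order. Psph is itself a member. For Shmt1, the member with the largest rise, they were 4932412D23Rik (0.984), Tmem238 (0.975), Psrc1 (0.975), Rpf2 (0.968) and Adgrg2 (0.966), and none of the other members was among them.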

How the data were processed

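The authors deposited log2 values from RMA, as the submitters' processing notes name it, with no version given in the sources. This method usually corrects background, equalises arrays and summarises probes, which compresses changes of dim genes. Per the labels' protocols, cRNA was labelled with biotin from 1 µg of RNA primed with oligo(dT). Of 45101 probe sets 64 controls were left out. The platform annotation names 1 gene for 34945 of the rest, and the symbols of 34741 were updated through RefSeq (GRCm38.p6). The brightest probe set by its mean over 8 arrays stands for a gene.

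Changes were estimated by limma (version 3.58.1, R 4.3.3) with lmFit and eBayes and genotype alone, over all 45037 probe sets, with Benjamini-Hochberg adjustment over 18193 genes or, where said, over all probe sets, at 0.05. The fit was tested on simulated data. Pairs were compared by an exact two-sided permutation test over 70 splits. Same-numbered WT and Cebpg-/- samples correlated at -0.27 to 0.13 in their deviations from group means. These values cannot show whether the samples were paired, and the labels do not say. The main fit treats them as unpaired. No protein comparison was made. Alternatives were other scalings, a filter on dim probe sets, averaged probe sets, other variance models, array weights, a leukocyte marker covariate, a replicate block and leaving out arrays.

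The genes named are all members, Cebpg, called genes of the pathway list and the 2 others with the lowest p, and the 5 genes most like the member with the largest fall or rise. Further pathway genes are named by role. The members and lists were chosen with earlier results of these data known.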

Additional observations from a re-analysis of the deposited data

Results flagged for a closer look

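Among 28 groups of 4 values (the 10 members and 4 pairs in each genotype), 2 held a sample far from the others, where chance flags about 1 in 20 groups. Mthfd1l read 7.30 on WT replicate 3 and between 7.01 and 7.05 on the other WT arrays, and without that array its change was -0.12 (limma, adjusted p = 0.467). Aldh1l2 read 8.70 on WT replicate 3 and 8.61 on each of the other WT arrays, a gap that is small beside its fall, and without that array its change was -1.85 (limma, adjusted p = 0.00174).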

How the results depend on the processing

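The count of 5 members that fell was 5 under all 18 alternatives run, those that leave out 1 array included. The share of all genes called lower was 3.99% in the main fit. It was 0.70% with the leukocyte covariate, 1.00% with both replicate 1 arrays left out and 6.72% without dim probe sets. The 1 member that rose, Shmt1, gave a count of 0 after quantile normalization, with a gene's probe sets averaged, with the leukocyte marker covariate and with both replicate 1 arrays left out (chosen after seeing the data), and of 0 to 1 when leaving out 1 array. The pathway list had 1 gene lower (Sfxn3) after quantile normalization, without dim probe sets, with the mean of probe sets and with an intensity trend, 2 (Gnmt and Sfxn3) with array weights, and 0 to 1 without 1 array. Its count of higher genes was 0 with the leukocyte covariate and without both replicate 1 arrays, 1 with the replicate block, 4 (Gart added) with array medians subtracted, and 1 to 2 without 1 array. Of all genes 8.62% were called higher, beside 1.42%, 1.91%, 5.38% and 12.03% under the first 4 of these settings in that order. The cause of these shifts was not tested. The members' median change was -0.72 without dim probe sets, which leaves out Aldh1l1. The pair Aldh1l2 minus Aldh1l1 was at -1.45 with the leukocyte covariate. The change of Aldh1l1, never called, was 0.035 after quantile normalization, 0.025 after subtracting array medians, 0.010 with probe sets averaged, 0.026 with array weights, and -0.068 to 0.068 without 1 array. With the replicate number as a block 5 members fell and 1 rose, and no call of a member changed. No test of the pair differences was run when 1 array was left out, or with the covariate or the block. As values all stayed negative. The share of called genes that were higher was 68.4%, and it was 56.7% under quantile normalization and 78.9% with array medians subtracted. Signal limits what can be said of Aldh1l1, which lies under the median of all values.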
